A study of Rattus norvegicus with 100 samples.

Results

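The contractile genes of smooth muscle were described in rat uterus and, for comparison, in rat pituitary gland. They were chosen by name, with earlier results of these data known, so counts set beside the shares of all genes are descriptions. The set holds the actins Acta2 and Actg2, the myosin chains Myh11 and Myl9, the thin filament proteins Cnn1, Tagln, Smtn, Tpm1 and Tpm2, and the intermediate filament protein Des. These are 10 of the 9030 genes that had a value on any array, and 15 of the 15923 probe sets of the array belong to them alone. Each gene was read from its brightest probe set, and all 10 had a value on all 70 uterus arrays. A further 3 probe sets are assigned to both Acta2 and Actc1 and were not used.

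The samples come from an OECD uterotrophic assay, in which the growth of the uterus of immature female rats reports estrogenic activity. The agent was ethinyl estradiol (EE), a synthetic estrogen, and every EE group had a control group of the same time. At 2, 4, 8, 24, 28, 48 and 72 h the uterus of each treatment was read on 5 arrays, and at 4, 8, 24, 48 and 72 h the pituitary on 3. Dose, route, number of doses, strain and age in days are not stated in the labels, nor whether each array is a separate animal, so the spread behind each p-value is that between these samples and may be technical. Total RNA of the whole tissue was read, so in all that follows fewer cells of a type and less RNA per cell cannot be told apart. The deposited values are linear intensities on Affymetrix RAE230A arrays, and changes are given as log2(intensity + 30.4), which understates the change of dim genes. A gene passed where the adjusted p was under 0.05 (limma's moderated variance, Benjamini-Hochberg over all genes tested in a comparison).

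Smooth muscle contracts when myosin filaments pull on actin filaments that are anchored to dense bodies, and the pull is switched on when the regulatory light chain of myosin is phosphorylated. The myometrium, the muscle coat of the uterus, is built of such cells. Tropomyosins, calponin, transgelin and smoothelin lie along the actin filaments, and desmin filaments link the dense bodies. Many of these genes are controlled by serum response factor, which binds the CArG box, a core of A and T between CC and GG.

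To set the genes beside that motif, the 250 bases before the annotated start were searched (RefSeq, GRCr8). A window was at hand for 7 of the 10 genes, and those of Myh11, Tagln and Myl9 were not analysed here. The windows of Acta2, Cnn1 and Des are shown because they begin at the outermost annotated start of the gene and because the values below include no late call for Acta2 and late rises for Cnn1 and Des. Capitals mark a CArG box with up to 1 letter in its core other than A or T.
Acta2, chr1:241172504-241172753, minus strand: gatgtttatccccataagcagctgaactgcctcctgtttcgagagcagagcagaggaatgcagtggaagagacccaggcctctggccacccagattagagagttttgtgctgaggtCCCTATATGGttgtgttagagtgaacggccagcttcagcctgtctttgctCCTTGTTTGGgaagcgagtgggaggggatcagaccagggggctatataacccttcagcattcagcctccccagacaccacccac
Cnn1, chr8:28908187-28908436, plus strand: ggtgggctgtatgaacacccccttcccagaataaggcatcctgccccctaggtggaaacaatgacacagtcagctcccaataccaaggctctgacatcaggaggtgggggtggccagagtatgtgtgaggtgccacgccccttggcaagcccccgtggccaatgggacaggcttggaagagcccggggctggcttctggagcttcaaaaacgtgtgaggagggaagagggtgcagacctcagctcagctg
Des, chr9:84299376-84299625, plus strand: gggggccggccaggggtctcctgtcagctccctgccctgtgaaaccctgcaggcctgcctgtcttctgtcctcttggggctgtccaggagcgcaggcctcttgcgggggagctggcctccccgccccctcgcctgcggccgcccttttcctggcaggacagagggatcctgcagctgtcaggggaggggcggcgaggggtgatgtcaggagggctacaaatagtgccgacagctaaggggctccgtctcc
The Acta2 window held 2 such boxes, CCCTATATGG from base -134 to -125 and CCTTGTTTGG from base -84 to -75, counted from the start, and none of the other 6 windows held one. The motif reads the same on both strands. The start used for Actg2 lies 10340 bases from the outermost annotated start of the gene, and the bases before that outermost start were not searched. For Tpm2, Tpm1 and Smtn the distance was 340, 246 and 11 bases. A box with an intact core was in 0 of the 7 windows and in 1.5% of all 33469 windows of this length. With up to 1 other letter in the core it was in 8.08% of all windows, and 2 or more of them were in 0.693%. The full estrogen response element GGTCANNNTGACC was in none of the 7 windows and in 0.0239% of all. Its part GGTCA, searched on both strands, was in the Tpm2 window and in 35.4% of all. A match in these letters is a description of the window, and a window without a match says nothing about binding elsewhere.

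Both myosin chains were lower with EE at 8 h, and most of the 10 genes were higher at 48 and 72 h. None of the 10 passed at 2 h, nor had an unadjusted p under 0.05 (limma), where 4.02% of all genes were called higher and 2.37% lower. At 4 h 0 were higher (23.6% of all genes were) and 1 was lower (34.5% of all), and at 8 h 1 was higher (28.9% of all) and 2 were lower (35.5% of all). At 24 h 4 were higher (24.9% of all) and 1 lower (34.4% of all), and at 28 h 5 were higher (28.5% of all) and 1 lower (34.3% of all). At 48 h 7 were higher (24.2% of all) and at 72 h 8 were higher (23.3% of all), and 0 were lower at either time, also by an unadjusted p under 0.05 (33% and 36.9% of all). The median change of the 10 genes was -0.05, -0.04, -0.04, 0.06, 0.16, 0.36 and 0.37 in order of time, and that of all genes tested lay between -0.08 and -0.02. The calls of Myl9 at 4 and 8 h, Myh11 at 8 h, Actg2 at 24 and 28 h, Tpm2 at 28 h and all 7 at 48 h stood under every other setting and without any 1 array. The other calls up to 28 h were lost under another scaling or without single arrays, as given with each gene. Centring each array on its median moved the median change of all genes at 72 h up by 0.11 and the share of calls that were higher from 38.7% to 57.5%. With that scaling 9 of the 10 genes were higher at 72 h, as were 2269 of all 6762 genes tested. With quantile normalization 5 were, against 1423 of all 6762: Actg2, Myl9, Cnn1, Tpm2 and Des.

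**Figure D1:**
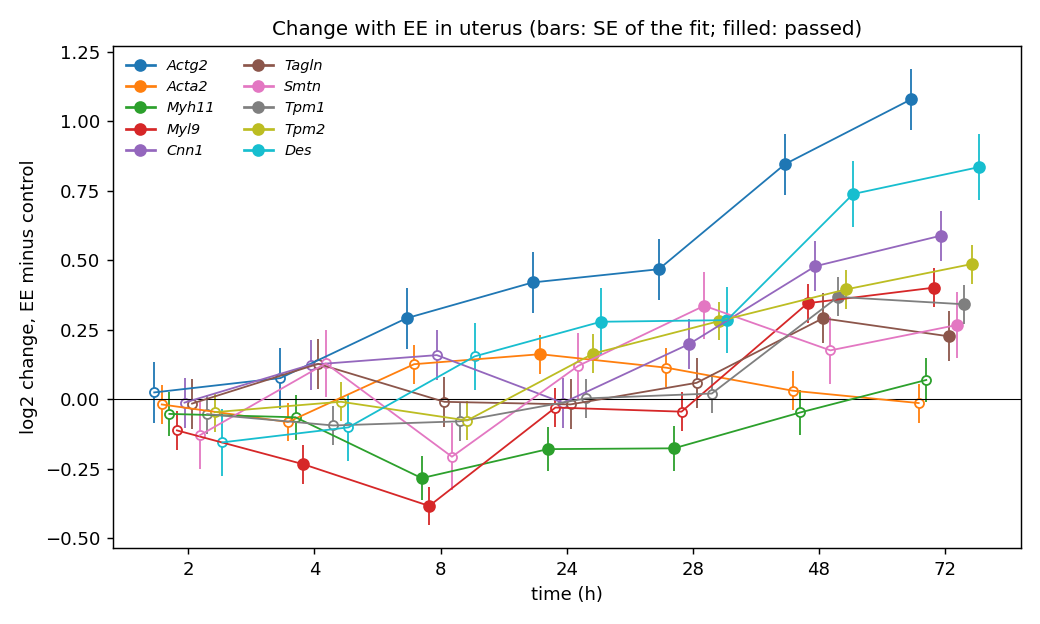
Log2 change (EE minus control) of the 10 genes in uterus at each time, with the times evenly spaced and the genes set apart sideways; bars are the SE of the fit and filled points passed. Actg2 and Des lie highest at 48 and 72 h, Myl9 is lowest at 8 h, and Acta2 and Myh11 are near 0 at 72 h.

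The 2 smooth muscle actins parted. Actg2, the gamma actin of visceral smooth muscle, had the largest rise of the set, and Acta2, the alpha actin that is typical of vascular smooth muscle and also present in the myometrium, passed at 24 h alone in the scale as deposited. Actg2 read 1044, 1071, 1115, 1233 and 1699 on the 5 control arrays at 72 h and 2134, 2409, 2493, 2672 and 3432 on the 5 EE arrays. All EE arrays lay above all controls, and 1 control array stood above the other 4. The change was 1.08 ± 0.11 (SE), a 2.11-fold rise (adjusted p = 2e-12). At 48 h the controls read 954, 1055, 1107, 1237 and 1417 and the EE arrays 1798, 1916, 2096, 2108 and 2555. The groups did not overlap at this time either, and the rise was 0.85 ± 0.11 (SE) (adjusted p = 4.24e-09).

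Actg2 was also among the first of the set to rise. At 8 h the controls lay at 1041 to 1492 and the EE arrays at 1453 to 1743, so the groups overlapped. The change of 0.29 ± 0.11 (SE) passed (adjusted p = 0.0219), and with quantile normalization it was 0.15 and did not pass. It also did not pass without control replicate 27 or EE replicate 33 or 34 (0.22 to 0.26, adjusted p = 0.0532 to 0.104), where replicates have the numbers of their titles. The rises at 24 h (0.42 ± 0.11 (SE)) and 28 h (0.47 ± 0.11 (SE)) passed under all 12 other settings and without any 1 array. At 28 h the 5 EE arrays (1632 to 1981) lay above the 5 controls (1216 to 1324), as they did in 21.6% of all genes tested. At 2 and 4 h the changes were 0.02 and 0.08, and neither passed.

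Acta2 was bright in every group, at 1714 to 3057 over all uterus arrays. At 72 h it read 1912, 2389, 2391, 2547 and 3057 in controls and 2241, 2269.7, 2366, 2522 and 2668 with EE. The EE arrays lay within the range of the controls. The change was -0.01 ± 0.07 (SE) (adjusted p = 0.879), with 0.10 after centring and -0.13 after quantile normalization, neither of which passed. The one rise that passed was at 24 h, where controls read 1903, 1976, 2053, 2079.9 and 2089 and EE arrays 2162, 2248, 2257, 2285 and 2364. The groups did not overlap there (18.2% of all genes were likewise separated upwards), and the change was 0.16 ± 0.07 (SE) (adjusted p = 0.0438). It did not pass without control replicate 37, 38 or 39 or EE replicate 43, 44, 46 or 47 (0.14 to 0.17, adjusted p = 0.0524 to 0.104). After centring, a rise of 0.19 at 8 h passed as well, and 1 of 0.17 at 28 h passed narrowly (adjusted p rounding to 0.05).

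Acta2 also differed between the control groups. Its controls read 2526 ± 128 (SD, n = 5) at 4 h, 1823 ± 68.4 at 8 h and 2459 ± 411 at 72 h, and the EE groups read 2383 ± 89.5, 1993 ± 109 and 2414 ± 179.6. The difference between control times passed (adjusted p = 5.14e-07), as it did for 32.8% of all genes. Actg2 (adjusted p = 0.0288), Myl9 (0.0376) and Tpm2 (0.00945) passed as well, and the other 6 did not. After quantile normalization only Acta2 of these 4 passed (adjusted p = 0.000738).

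Because both actins are read on the same array, their ratio does not depend on an array's overall scale, and it was chosen for a test after the values were seen. The log2 ratio of Actg2 over Acta2 was -0.99 ± 0.20 (SD, n = 5) in controls and 0.11 ± 0.17 with EE at 72 h. At 48 h it was -0.75 ± 0.35 and 0.07 ± 0.15, and at 28 h -0.61 ± 0.10 and -0.26 ± 0.12. At these 3 times all 5 EE arrays lay above all 5 controls. The differences of 1.09, 0.82 and 0.35 each had p = 0.00794 in a two-sided exact permutation test, the smallest it can give with 5 against 5, and 0.0185 after adjustment over the 7 times. At 2, 4, 8 and 24 h the differences were 0.04, 0.16, 0.17 and 0.26, with exact adjusted p from 0.222 to 0.683. The ratio shows that the 2 probe sets changed unequally, while its level has no meaning, since probe sets differ in brightness. Actin genes are close to one another in sequence, and how far their probe sets cross-hybridise was not tested.

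**Figure D2:**
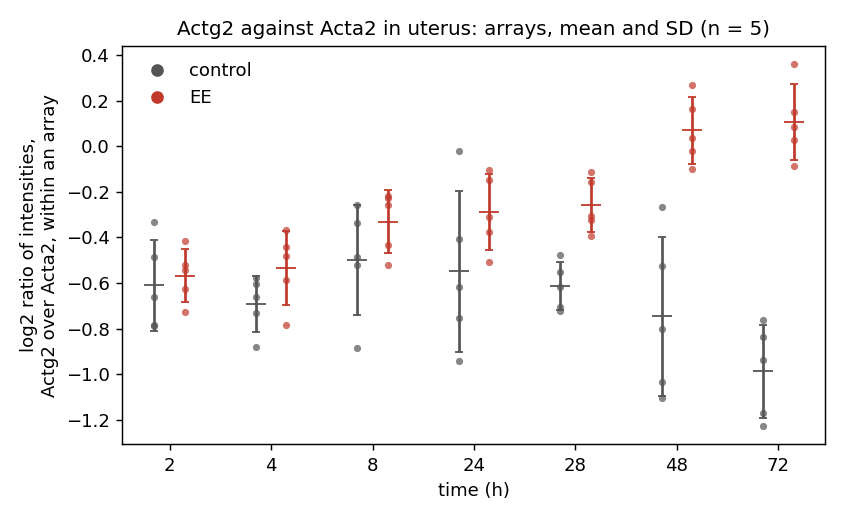
Log2 ratio of the Actg2 over the Acta2 intensity within each uterus array, by time (evenly spaced); points are arrays, and bars are the mean and SD of 5 arrays. EE and control points part at 28, 48 and 72 h.

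Both myosin chains were lower at 8 h, and the light chain was higher at 48 and 72 h. After quantile normalization Smtn (-0.33), Tpm1 (-0.27) and Tpm2 (-0.25) passed as lower at 8 h as well, where 2509 of all 6893 genes tested did. Myl9, the regulatory light chain whose phosphorylation starts contraction, read 1438, 1509, 1618, 1648 and 1708 in controls at 8 h and 1180.4, 1184, 1188, 1193 and 1279 with EE. All 5 EE arrays lay below all controls, as in 27.9% of all genes tested. The fall was 0.38 ± 0.07 (SE) on the log2 scale, 1.31-fold (adjusted p = 1.79e-06). It had begun at 4 h, where controls lay at 1656 to 1706 and EE arrays at 1273 to 1546, again without overlap, which 24% of all genes showed in this direction. The change at 4 h was -0.23 ± 0.07 (SE) (adjusted p = 0.00279).

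Myl9 was back near its controls at 24 and 28 h, with changes of -0.03 and -0.04 that did not pass, although they passed as lower after quantile normalization (-0.15 and -0.18). At 48 h the controls read 1208, 1328, 1438, 1491 and 1560.1 and the EE arrays 1688, 1696, 1730.2, 1814 and 2024, now all above the controls. The rise was 0.35 ± 0.07 (SE) at 48 h (adjusted p = 1.91e-05) and 0.40 ± 0.07 (SE) at 72 h (adjusted p = 9.93e-07). At 72 h the 5 EE arrays lay at 1945 to 2519 and the controls at 1487 to 1777. The turn was itself tested. The effect of EE was higher at 24 h than at 8 h by 0.35 (adjusted p = 0.00196) and higher at 48 h than at 28 h by 0.39 (adjusted p = 0.00159). Among all genes 23.6% were higher in the first of these differences and 12.8% in the second.

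Myh11, the smooth muscle myosin heavy chain, read 2038, 2049.8, 2134, 2219.5 and 2327 in controls at 8 h and 1588, 1701, 1783, 1851 and 1901 with EE. Here too all EE arrays were the lower ones. The fall was 0.28 ± 0.08 (SE) on the log2 scale (adjusted p = 0.00115). At 24 and 28 h Myh11 was lower, by changes of -0.18 (adjusted p = 0.0421) and -0.18 (adjusted p = 0.0432), and the groups overlapped. These 2 calls were lost after centring (-0.11 and -0.12). That at 24 h was also lost without control replicate 38, 39 or 42 or EE replicate 43, 45, 46 or 47 (-0.18 to -0.15, adjusted p = 0.053 to 0.112), and that at 28 h without control replicate 50, 51 or 52 or EE replicate 56, 57 or 59 (-0.17 to -0.14, adjusted p = 0.0668 to 0.136). At 72 h controls read 2074, 2220.4, 2301, 2364 and 2687 and EE arrays 2338, 2389, 2409.5, 2493 and 2559, within the range of the controls. The change of 0.07 ± 0.08 (SE) did not pass (adjusted p = 0.455), was 0.19 and passed after centring (adjusted p = 0.0442), and was -0.04 after quantile normalization.

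**Figure D3:**
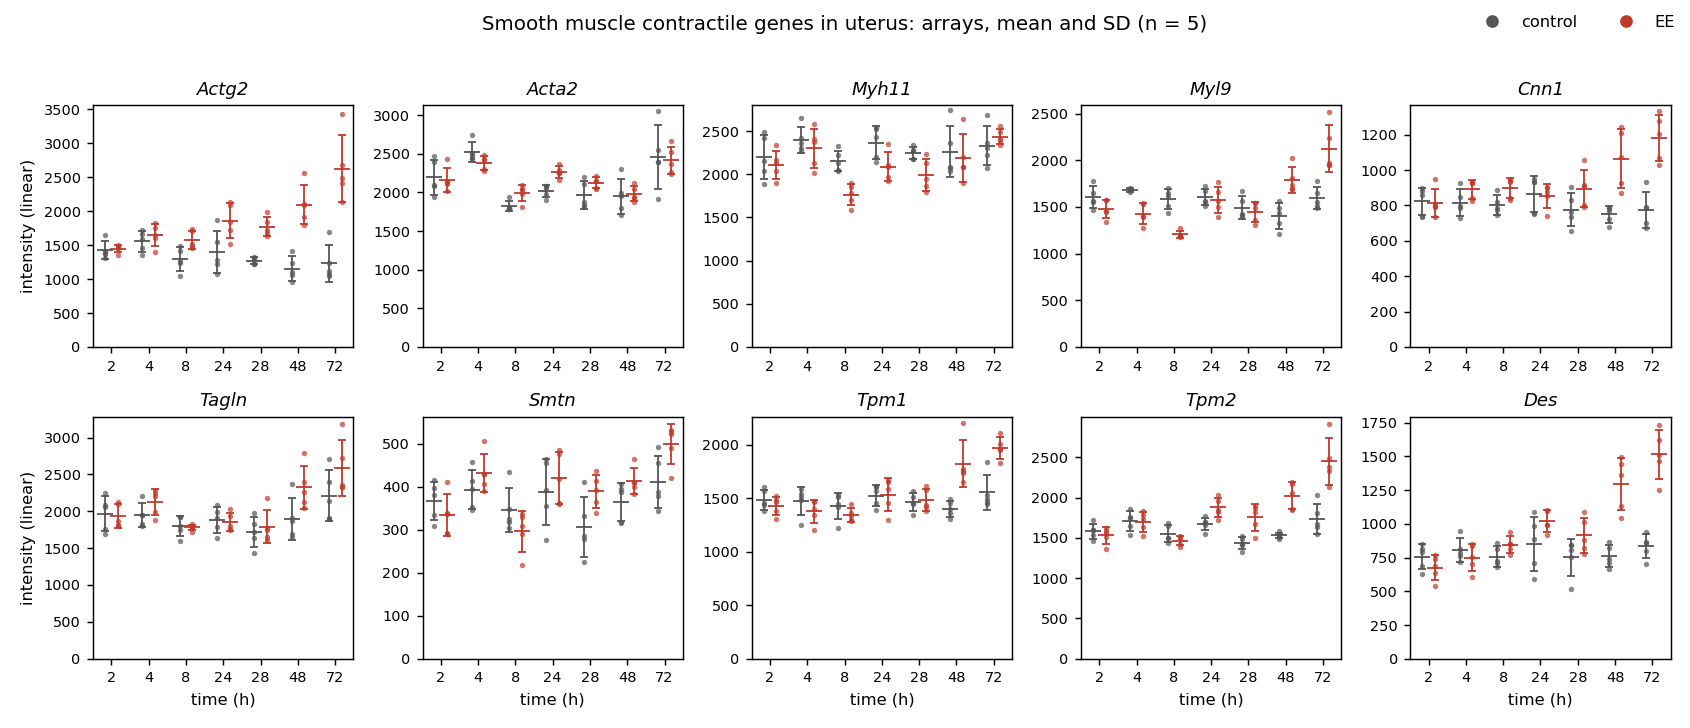
Linear intensity of each gene on every uterus array by time (evenly spaced), control and EE side by side; bars are the mean and SD of 5 arrays, and each panel has its own axis from 0. EE points stand above control points at 48 and 72 h for Actg2, Cnn1, Myl9, Tpm2 and Des, and below them at 8 h for Myl9 and Myh11.

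Of the thin filament genes, read by their brightest probe sets, Cnn1 and Tpm2 had the largest rises at 72 h; a second probe set of Tpm1, given below, rose as much as Cnn1. Cnn1, calponin, which binds actin and restrains its cycling with myosin, read 674, 702, 783, 789 and 933 in controls at 72 h and 1028, 1067, 1201, 1277 and 1331 with EE. The groups did not overlap, and the change was 0.59 ± 0.09 (SE), a 1.5-fold rise (adjusted p = 5.7e-08). At 48 h it read 679.5, 721, 769.9, 786 and 788 in controls and 869, 925, 1074, 1209.8 and 1242 with EE, a rise of 0.48 ± 0.09 (SE) (adjusted p = 5.49e-06). The 5 EE arrays were spread more widely than the controls at 48 h, and all of them lay above. The rise of 0.20 at 28 h (adjusted p = 0.0466) was lost under 4 of the 12 other settings and without control replicate 49, 50 or 51 or EE replicate 55, 58 or 59 (0.14 to 0.19, adjusted p = 0.0708 to 0.19).

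Tpm2, beta-tropomyosin, which lies along the actin filament, read 1547, 1638, 1673, 1811 and 2029 in controls at 72 h and 2132, 2333, 2381, 2491 and 2919.6 with EE, all above the controls. The change was 0.49 ± 0.07 (SE), a 1.4-fold rise (adjusted p = 7.11e-09). At 48 h the controls lay close together at 1484 to 1582 and the EE arrays at 1851 to 2192, a rise of 0.39 ± 0.07 (SE) (adjusted p = 1.1e-06). The rise at 28 h, 0.28 ± 0.07 (SE) (adjusted p = 0.000248), was called under all other settings, and that at 24 h, 0.16 ± 0.07 (SE) (adjusted p = 0.0318), was lost after quantile normalization (0.10) and without control replicate 41 or 42 or EE replicate 43 or 44 (0.14 to 0.16, adjusted p = 0.0514 to 0.0966). The effect of EE on Tpm2 was higher at 24 h than at 8 h by 0.24 (adjusted p = 0.0331).

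Tagln, transgelin or SM22-alpha, an actin-binding protein that marks smooth muscle, passed at both late times by less. At 48 h it read 1652, 1687, 1866, 1912 and 2371 in controls and 2044, 2126, 2266, 2392 and 2787 with EE. The groups overlapped through 1 high control array, and the change was 0.29 ± 0.09 (SE) (adjusted p = 0.00699). At 72 h controls lay at 1890.2 to 2715 and EE arrays at 2328 to 3187, a change of 0.23 ± 0.09 (SE) (adjusted p = 0.0346) that was 0.10 and did not pass after quantile normalization. It was also lost with only the 2 groups in the fit, and without control replicate 75, 77 or 78 or EE replicate 79 or 84 (0.15 to 0.22, adjusted p = 0.0584 to 0.185). Before 48 h its changes lay between -0.02 and 0.13, and none passed.

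Smtn, smoothelin, which binds actin and is typical of contractile smooth muscle, was the dimmest of the set, at 217 to 532 over the uterus arrays. It passed at 28 h, where controls read 225, 278, 285, 332 and 411 and EE arrays 339, 364, 393, 413 and 437. The groups overlapped, and the change was 0.34 ± 0.12 (SE) (adjusted p = 0.01). It did not pass at 48 h (0.18 ± 0.12 (SE), adjusted p = 0.196), and at 72 h the change was 0.27 ± 0.12 (SE) (adjusted p = 0.0429). The call at 72 h was lost after quantile normalization (0.13) and without control replicate 75, 77 or 78 or EE replicate 79, 81, 82 or 83 (0.21 to 0.27, adjusted p = 0.0562 to 0.14). It was also lost with an offset of 1 (adjusted p = 0.0504) and with blanks set to the 10th percentile (adjusted p = 0.0529). The call at 28 h was lost after quantile normalization (0.27, adjusted p = 0.0553) and without control replicate 50 (0.24, adjusted p = 0.0732).

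Tpm1, alpha-tropomyosin, is read by several probe sets, whose changes are given side by side. The brightest, 1370287_a_at, read 1303, 1362, 1396, 1452 and 1489 in controls at 48 h and 1655, 1737, 1750.2, 1769 and 2207 with EE, all above the controls, with 1 EE array above the other 4. The rise was 0.37 ± 0.07 (SE) (adjusted p = 9.73e-06). At 72 h controls lay at 1443 to 1841 and EE arrays at 1832 to 2110.5, a change of 0.34 ± 0.07 (SE) (adjusted p = 3.07e-05) that was 0.08 and did not pass after quantile normalization. The effect of EE was higher at 48 h than at 28 h by 0.35 (adjusted p = 0.00608). With the median over all Tpm1 probe sets, not all of which had a value on every array, it was 1.12 and did not pass (adjusted p = 0.107).

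A further 3 probe sets of Tpm1 could be tested at every time, with p-values adjusted over all probe sets of single genes. The second brightest, 1370288_a_at, rose by 0.46 ± 0.07 (SE) at 48 h (adjusted p = 2.87e-08) and by 0.59 ± 0.07 at 72 h (adjusted p = 1.62e-11). The dimmer 1368724_a_at and 1371241_x_at instead passed at 8 h alone, with 0.35 ± 0.10 each (adjusted p = 0.00224 and 0.00296), and at 72 h changed by 0.01 and 0.08, neither of which passed. Tropomyosin genes give rise to many spliced transcripts, of which some are typical of muscle and others of non-muscle cells. The suffix _a_at stands for alternative transcripts of a gene and _x_at for probes that may also bind other genes. Which transcripts each probe set reads was not analysed here, and the differences between probe sets were not tested.

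**Figure D4:**
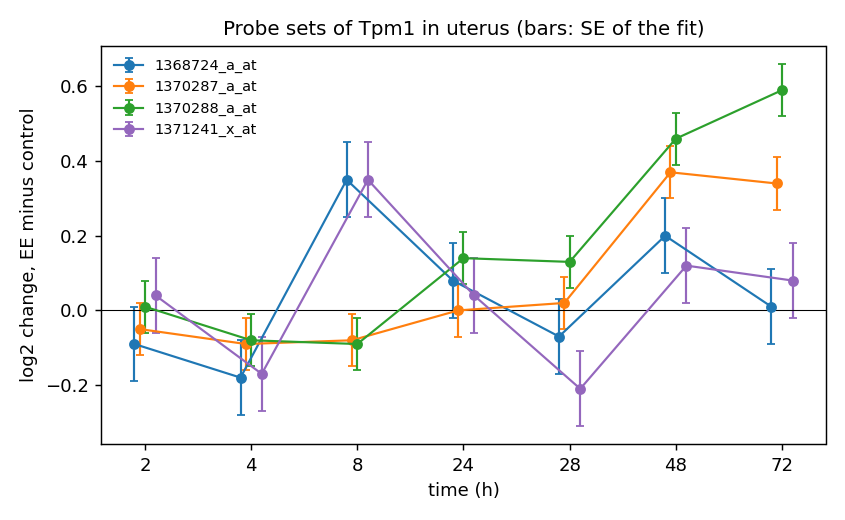
Log2 change (EE minus control) in uterus of the 4 Tpm1 probe sets with a test at every time (evenly spaced); bars are the SE of the fit. The curves of 1370287_a_at and 1370288_a_at rise late to 0.34 and 0.59 at 72 h, and the other pair peaks at 0.35 at 8 h.

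Des, desmin, the intermediate filament of muscle cells, had the second largest rise. At 72 h it read 701, 802, 859.6, 869 and 942 in controls and 1247, 1469, 1507, 1621 and 1729.6 with EE. The lowest EE array stood well above the highest control, and the change was 0.84 ± 0.12 (SE), a 1.78-fold rise (adjusted p = 1.36e-08). At 48 h controls read 663, 712, 743, 821 and 863 and EE arrays 1044, 1135, 1361, 1443 and 1494, again apart, a rise of 0.74 ± 0.12 (SE) (adjusted p = 3.09e-07). The rises of 0.28 at 24 h (adjusted p = 0.0387) and 0.28 at 28 h (adjusted p = 0.0328) came from overlapping groups. Each rise was lost after quantile normalization (0.14 at both times) and with only the 2 groups in the fit (adjusted p = 0.0842 and 0.0652). That at 24 h was also lost without control replicate 37 or 41 or EE replicate 43 or 44 (0.16 to 0.25, adjusted p = 0.0815 to 0.249), and that at 28 h without control replicate 50 or EE replicate 58 or 59 (0.16 to 0.25, adjusted p = 0.0833 to 0.237). The effect of EE was higher at 48 h than at 28 h by 0.45 (adjusted p = 0.0367), and after quantile normalization by 0.39 (adjusted p = 0.0958).

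At 28 h a single array, control replicate 50, bore on several of these calls. It read 517 for Des, where the other 4 controls read 754 to 841, and without it Des (0.16), Smtn (0.24), Cnn1 (0.14) and Myh11 (-0.17) no longer passed, which left 2 genes higher. At 24 h Actg2 alone was higher without EE replicate 43 or 44. At 48 h all 7 calls stood under each of the 12 other settings and without any 1 array, and at 72 h those of Actg2, Myl9, Cnn1, Tpm2 and Des did. The sizes of these rises moved with the scaling. After quantile normalization the changes of Actg2, Myl9, Cnn1, Tpm2 and Des at 72 h were 0.85, 0.16, 0.31, 0.29 and 0.54. After centring they were 1.2, 0.52, 0.71, 0.61 and 0.95. The 7 changes at 48 h were 0.17 to 0.68 after quantile normalization and 0.37 to 0.93 after centring. Groups that did not overlap were counted for 6 genes at 48 h (17.4% of all genes in this direction) and 5 at 72 h (16.3% of all).

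In order of the change at 72 h the genes were Actg2 (1.08), Des (0.84), Cnn1 (0.59), Tpm2 (0.49), Myl9 (0.40), Tpm1 (0.34), Smtn (0.27), Tagln (0.23), Myh11 (0.07) and Acta2 (-0.01). The SE of a single change lay between 0.07 and 0.12, and the gaps between neighbours in this order, which were not tested, lay between 0.03 and 0.25. None of the 10 passed a difference in the EE effect between 72 and 48 h, 28 and 24 h, 8 and 4 h or 4 and 2 h, where 0.509%, 8.29%, 19.6% and 33% of all genes did; by an unadjusted p under 0.05 (limma) 1 was higher and 1 lower between 8 and 4 h and none otherwise. Over all times together the effect of EE differed between times for 7 of the 10 genes (81.7% of all genes), the exceptions being Acta2 (adjusted p = 0.174), Tagln (0.141) and Myh11 (0.0641). Acta2 and Myh11 passed after quantile normalization (0.00507 and 0.00335), and Myh11 also after centring (0.0377).

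Over the 14 group means of uterus, each gene was set against the mean of the 10 standardised profiles, to which it contributes itself. Pearson's r was 0.975 for Tpm2 and 0.910 for Tpm1 at the upper end and 0.545 for Acta2 and 0.520 for Myh11 at the lower. Between the genes r lay from -0.00149 to 0.934 over the 45 pairs, with a median of 0.684. The group means share arrays, times and scale, so these values are descriptions. Within a group of 5 arrays the coefficient of variation had a median between 5.26% (Acta2) and 13.2% (Smtn). Among the 5493 genes with a value on every uterus array, the 6 others nearest to the mean profile were Clic1 (r = 0.917), Tmsb4x (0.917), Nxn (0.911), B2m (0.908), Rhoc (0.908) and Hspb1 (0.907). B2m, a chain of class I antigen presenting complexes, changed by 1.11 at 72 h, Hspb1, a small heat shock protein bound to actin, by 0.57, and Clic1, Tmsb4x, Nxn and Rhoc by 0.29 to 0.54.

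In the pituitary, where smooth muscle is found in blood vessels, the same probe sets were dim or blank. Acta2, Myl9 and Tpm1 had a value on all 30 arrays, at 47.4 to 137, 60.0 to 197 and 112 to 238, against 1714 to 3057, 1180.4 to 2519 and 1205 to 2207 in uterus. Actg2 and Des had a value on 19 arrays each, at 7.01 to 81.2 and 25.4 to 56.2. Tagln was read on 13 of 30, Cnn1 on 9, Tpm2 on 6, Myh11 on 5 and Smtn on 3. For none of the 10 genes did the pituitary range reach the lowest uterus array. In controls, 4 genes had enough values for a test of uterus minus pituitary, and all 4 were higher in uterus, as 39% of all genes were. The log2 difference was 4.47 ± 0.05 (SE) for Acta2, 3.68 ± 0.07 for Des, 3.52 ± 0.05 for Myl9 and 3.11 ± 0.04 for Tpm1, with adjusted p of at most 2.26e-58 each. The other 6 were too often blank in the pituitary.

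**Figure D5:**
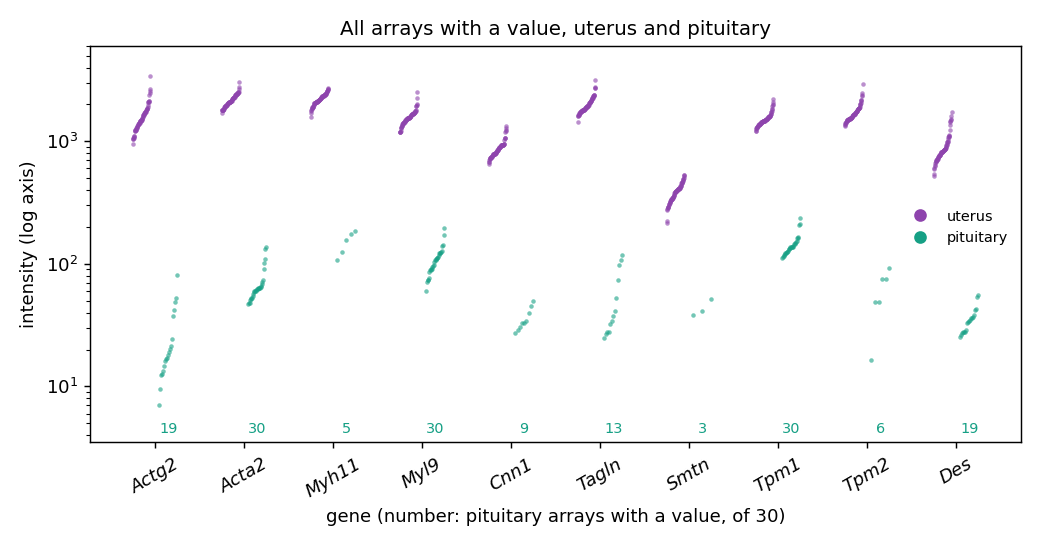
Linear intensity of the 10 genes (log axis) on every array that had a value, EE and control together, uterus beside pituitary; the numbers give how many of 30 pituitary arrays had a value. No pituitary point of a gene reaches its uterus points.

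EE left no call in the pituitary. Of the genes with enough values, 0 of 6 passed at 4 h, 0 of 3 at 8 h, 0 of 5 at 24 h, 0 of 3 at 48 h and 0 of 4 at 72 h, where 1.49%, 3.59%, 0.103%, 0.294% and 2.66% of all genes did; by limma's test none of them had an unadjusted p under 0.05, the lowest being 0.142. With 3 arrays a group the SE of a change was 0.14 to 0.34, so that small changes were not detectable there. The difference of the EE effect between tissues was tested directly. At 72 h the pituitary values of Actg2 were 2 a group, 14.8 and 16.6 in controls and 7.01 and 12.6 with EE, with the third array of each group blank. All 4 lay below 30.4, the 10th percentile of the table, so the Actg2 difference is against a probe set with readings among the dimmest. The effect at 72 h was higher in uterus by 1.28 ± 0.27 (SE) for Actg2 (adjusted p = 9.21e-05), by 0.59 for Myl9 (0.00466) and by 0.44 for Tpm1 (0.00944), and by 0.12 for Acta2, which did not pass (0.622). These were 3 of 4 genes tested, against 14.4% of all genes. None of the 6, 3 and 5 genes tested at 4, 8 and 24 h passed, nor had an unadjusted p under 0.05 (limma), against 33.8%, 48.1% and 40.1% of all genes. At 48 h Myl9 passed with 0.48 (adjusted p = 0.0229), 1 of 3 tested against 15% of all genes. Of these, the Actg2 difference alone passed after quantile normalization, and none passed with the title number as a replicate block. The Myl9 difference at 48 h was lost without 1 control or 1 EE array of the pituitary (0.46 and 0.39, adjusted p = 0.0538 and 0.0979).

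The other lists are read against the shares of all genes, 28.9% higher and 35.5% lower at 8 h and 23.3% higher and 36.9% lower at 72 h. Of other structural genes of smooth muscle, such as those of the dense body, 2 of 20 tested were higher and 11 lower at 8 h, with a median change of -0.29, and 8 were higher and 2 lower at 72 h, with a median of 0.09. The median of all genes was -0.04 at 8 h and -0.07 at 72 h. Those with the largest changes that passed were Sgce, a sarcoglycan (-0.95 ± 0.08, adjusted p = 2.15e-16, errors being SE), Csrp2, a LIM protein (-0.94 ± 0.11, adjusted p = 3.41e-11), Svil, supervillin (-0.83 ± 0.08, adjusted p = 1.35e-13), and Aoc3, an amine oxidase of the smooth muscle surface (-0.81 ± 0.11, adjusted p = 4.74e-09), all at 8 h. Svil was still lower at 72 h (-0.66), while Csrp2 was higher (0.28) and Sgce and Aoc3 did not pass (-0.01 and -0.15). Genes that link actin to integrins were near those shares at 8 h, with 3 of 13 higher and 4 lower, and 4 were higher and 2 lower at 72 h, with medians of -0.05 and 0.08. There Ilk (-0.46) and Pxn (-0.41) fell at 8 h, and Pxn rose at 72 h (0.32).

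Genes that set myosin phosphorylation were near the shares of all genes, with 3 of 10 higher and 3 lower at 72 h and a median of -0.05. Rgs2, which damps signals through G proteins, was lower at 28 h (-1.33 ± 0.11, adjusted p = 1.62e-16). Ppp1r14a, an inhibitor of myosin phosphatase, was lower at 48 h (-0.81 ± 0.11, adjusted p = 1.47e-08), and Ppp1r12a, the targeting subunit of that phosphatase, at 24 h (-0.78 ± 0.12, adjusted p = 1.33e-07). Of genes for calcium handling and membrane potential 2 of 15 were higher and 9 lower at 8 h, and 5 of 16 were higher and 8 lower at 72 h, with medians of -0.43 and -0.15. Gja1, the gap junction protein connexin 43 that couples myometrial cells, rose at 8 h (1.21) and 72 h (1.34 ± 0.10, adjusted p = 1.34e-17). Slc8a1, a sodium-calcium exchanger, was lower at both times (-1.33 and -0.42), as were Cacnb3, a calcium channel subunit (-1.13 and -0.47), and Atp2b1, a calcium pump of the plasma membrane (-0.82 and -0.75).

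Of serum response factor and its partners 2 of 9 tested were higher and 3 lower at 8 h, and 1 of 8 was higher and 3 lower at 72 h, with medians of -0.14 and 0.00. Srf itself was higher at 2, 4, 8 and 28 h (0.24, 0.80, 0.87 and 0.19) and lower at 24, 48 and 72 h (-0.28, -0.52 and -0.44). Klf4, a factor known to oppose smooth muscle gene expression, was higher at all 7 times, by 1.61 at 2 h, 1.86 at 28 h and 0.98 at 48 h. Mef2c, a muscle transcription factor, was lower at all 7 times, with -1.09 at 4 h and -0.54 at 72 h. Of non-muscle cytoskeletal genes 11 of 16 were higher and 2 lower at 8 h, and 10 were higher and 1 lower at 72 h, with medians of 0.39 and 0.26. Tagln2 and Tpm3, relatives of Tagln and Tpm1 found in many cell types, rose by 1.11 and 0.87 at 72 h, and Pfn1, which binds actin monomers, by 0.71.

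Of striated muscle markers 4 of 8 tested were higher and 1 lower at 72 h, with a median of 0.40. Acta1, the actin of skeletal muscle, rose at 48 h (1.35 ± 0.11, adjusted p = 8.87e-17) and 72 h (1.25), Tnnc1, a troponin, was lower at 72 h (-1.18), and Myh1 was lower at 8 h (-1.21) and did not pass at 72 h (0.10). The summed intensity of the 6 such markers read on every array was 1627 to 2093 in controls and 3119.9 to 3749.8 with EE at 72 h, Actn2 was blank on all arrays, and the part of these markers in the results was not tested.

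Markers of several other cell types moved at 72 h too, when 23.3% of all genes were higher and 36.9% lower. The summed intensity of the 10 contractile genes was 13714 to 18172 over the 5 control arrays at 72 h and 18401 to 22602 with EE, without overlap. That of 7 epithelial markers was 2456 to 2849 and 5881 to 8248, with 10 of 12 tested markers higher and 0 lower. For 4 macrophage markers it was 579 to 811 and 1382 to 2346, with 5 of 5 tested higher. For 6 endothelial markers it was 1204 to 1482 and 519 to 913, with 0 of 8 tested higher and 6 lower, and for 5 pericyte markers 870.4 to 965 and 646 to 797, with 0 of 5 higher and 3 lower. The 12 stromal markers summed to 18044 to 21899.8 and 19727 to 24509, with 3 higher and 4 lower, near the shares of all genes, and these sums overlapped. Both blood markers tested were lower, Hbb by a change of -0.74 and Alas2 by -0.52. Examples at 72 h were Krt19, a keratin of simple epithelia (2.93), Cd14 of macrophages (1.47), Kdr, a growth factor receptor of endothelium (-0.99), and Pdgfrb of pericytes (-0.86). At 8 h the 12 stromal markers summed to 17249 to 19326 in controls and 14349 to 15363 with EE, and 7 of 12 were lower. At 8 h the pericyte sum was 921 to 1017 and 614 to 707, beside the lower Myl9 and Myh11. The part of these cell types in the results was not tested.

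Some measures of the arrays differed between EE and control by an unadjusted exact permutation p under 0.05. None passed after adjustment over both tissues (lowest adjusted p = 0.0544). An exact p of 0.00794 is the smallest that 5 against 5 arrays can give. The adjustment took in pituitary comparisons of 3 against 3 arrays, so the lack of a pass does not show that the arrays were alike. The log2 difference between the 3' and 5' control probe sets of Actb, which grows as RNA is shortened, was 0.668 ± 0.268 (SD, n = 5) in controls and 0.317 ± 0.144 with EE at 72 h (two-sided exact permutation p = 0.0317, adjusted 0.147), and 0.615 ± 0.180 and 0.248 ± 0.133 at 48 h (exact p = 0.00794, adjusted 0.0544). At 8 h it was 0.51 ± 0.114 and 0.225 ± 0.0941, with the same p-values as at 48 h. At 28 h it was 0.441 ± 0.0782 and 0.197 ± 0.0735, also with those p-values. The same difference for Gapdh was 0.387 in controls and 0.344 with EE at 8 h (exact p = 0.532), and 0.472 and 0.327 at 28 h (exact p = 0.119). For Gapdh it was 0.55 and 0.341 at 48 h (exact p = 0.00794), and 0.519 and 0.283 at 72 h (exact p = 0.0397). Blank cells made up 36.3% of control arrays and 39.2% of EE arrays at 72 h, and 34.5% and 38.2% at 8 h. The mean array median was 102 in controls and 96.8 with EE at 24 h, and 103 and 98.4 at 72 h. The part of RNA length, of blanks and of array medians in the contractile genes was not tested. Between 9338 and 10677 probe sets had a value on a uterus array, and the array medians lay between 94.6 and 108, and the mean correlation of an array with the others of its group was at least 0.976. The hormone genes Prl, Gh1, Cga and Fshb had a value on all pituitary arrays and on none of the 70 uterus arrays, which matches the tissue labels. Lhb and Tshb had one on all pituitary arrays and also on 50 and 51 uterus arrays, and Pomc, a further pituitary hormone gene, had one on 1 of 30 pituitary arrays and on no uterus array.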

How the data were processed

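The members and the other gene lists were chosen with earlier results of these data known. Expression was read on 70 uterus and 30 pituitary Affymetrix RAE230A arrays, per the labels' protocols from 5 µg of total RNA. The deposited table holds linear intensity values, one per probe set and array, of which 37.2% were blank. No source used here gives the summarisation, the scaling or the reason for blanks. Gene symbols came from the platform annotation, updated through RefSeq (GRCr8), with 12783 probe sets for 1 gene, 312 for several and 2771 for none. A gene was read from its brightest probe set over all arrays.

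Values were taken as log2(intensity + 30.4), the added value being the 10th percentile of the table. Per tissue, group means were fitted by least squares without blanks, and variances were moderated with limma 3.58.1 (R 4.3.3). A test needed 3 of 5 values per group in uterus and 2 of 3 in pituitary. Tissues were compared in a fit of all 100 arrays. Differences between many times used an F statistic. P-values are two-sided and adjusted over all genes tested. The fit was tested on simulated data. Correlations over group means are descriptions. The 10 genes are always named; of each other list up to 4 genes with the largest change that passed at any time in uterus are named, and 6 genes of most similar pattern. Alternatives covered the offset, blanks, scaling, probe set choice, the samples in the fit, a replicate block and leaving out each array. The number of arrays limits the precision.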

Additional observations from a re-analysis of the deposited data

Results flagged for a closer look

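The 14 uterus groups of 5 arrays were searched, for each of the 10 genes, for an array far from the other 4, and 8 of the 140 had one; chance gives about 1 in 20 groups. Acta2 read 2748 on 1 control array at 4 h (the others 2435 to 2509.6) and 1945 on 1 control array at 8 h (1786 to 1799). Control replicate 76 at 72 h was high for Actg2 (1699, the others 1044 to 1233) and for Tpm1 (1841, the others 1443 to 1533). Myl9 read 1279 on 1 EE array at 8 h (1180.4 to 1193), Tagln 2174 on 1 EE array at 28 h (1604 to 1769) and Tpm1 2207 on 1 EE array at 48 h (1655 to 1769). Des read 517 on 1 control array at 28 h (754 to 841), replicate 50, without which 4 calls at 28 h were lost.

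The effect of EE in uterus differed between times by an F test of the difference for Myl9 (adjusted p = 4.75e-11), Actg2 (3.83e-08), Tpm2 (6.91e-08), Des (1.96e-07), Tpm1 (5.67e-06), Cnn1 (2.49e-05) and Smtn (0.0182). It did so for 81.7% of all genes. Between single times it differed for Myl9 (adjusted p = 0.00196) and Tpm2 (0.0331) at 24 h against 8 h, and for Myl9 (0.00159), Tpm1 (0.00608) and Des (0.0367) at 48 h against 28 h. Among all genes 23.6% were higher in the first of these differences and 12.8% in the second. The Des call was lost after quantile normalization, and the Tpm1 call with the median over its probe sets. Between uterus and pituitary the effect of EE differed at 72 h for Actg2 (adjusted p = 9.21e-05), Myl9 (0.00466) and Tpm1 (0.00944), and at 48 h for Myl9 (0.0229). Of all genes 14.4% had a higher effect in uterus at 72 h and 15% at 48 h. The calls of Actg2, Myl9 and Tpm1 between tissues were lost with the title number as a replicate block. The pituitary values of Actg2 at 72 h lay below the 10th percentile of the table. All differences above were tested with limma's moderated variance, and in each pair the later time or the uterus had the higher effect.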

How the results depend on the processing

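No called value turned its direction under any alternative run. Counts of members moved by over 1.5 times as follows. After quantile normalization 0 were higher and 5 lower at 8 h (1 and 2 before), 2 higher and 2 lower at 24 h (4 and 1), 2 higher and 2 lower at 28 h (5 and 1) and 5 higher at 72 h (8). Of all genes 1830 were then higher and 2509 lower of 6893 tested at 8 h, and 1817 and 2150 of 7014 at 24 h. At 28 h 2026 were higher and 2196 lower of 6920, and at 72 h 1423 of 6762 were higher. Quantile normalization also gave 2 members lower between 4 and 8 h (0), 1 that differed between control times (4), and for uterus minus pituitary 1 lower at 24 h (0), 0 higher at 48 h (1) and 1 higher at 72 h (3). After centring 3 members were higher at 8 h (2317 of all 6893 genes), 0 lower at 24 and 28 h (1890 of 7014 and 2018 of 6920), and 2 differed between tissues at 48 h. An offset of 100 also gave 2 there, as did the median over probe sets, through Tpm1 (1.36). The Tpm1 probe set 1370513_at had a value on 31 of 70 uterus arrays. The median of Tpm1 is therefore taken over different probe sets on different arrays, and nothing is concluded from it. With blanks set to the 10th percentile, 1, 4 and 6 differed between tissues at 8, 48 and 72 h, and 10 of 10 were higher in untreated uterus. The filled value lies below every uterus reading of these genes. For genes mostly blank in the pituitary these counts were therefore largely fixed by the filling, and nothing is concluded from them. With only the 2 groups in the fit 2 were higher at 8 h and 3 at 28 h. The cause of these moves was not tested.

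Leaving out each array in turn gave 0 to 1 higher at 8 h, 1 to 4 higher and 0 to 1 lower at 24 h, 2 to 5 higher and 0 to 1 lower at 28 h, and 6 to 8 higher at 72 h. Between tissues it gave 0 to 1 lower at 4 and 24 h, 0 to 2 higher at 48 h and 2 to 3 at 72 h. The difference of the actin ratio ranged from 0 to 0.11 at 2 h, 0.11 to 0.22 at 4 h, 0.07 to 0.22 at 8 h, 0.16 to 0.39 at 24 h, 0.32 to 0.39 at 28 h, 0.73 to 0.93 at 48 h and 1.03 to 1.15 at 72 h; its alternatives were chosen after seeing the data. Of 1130 single-gene refits without 1 array 1071 gave the same result, called or not called, 55 lost a call and 4 gained one. The 1130 include values not called with all arrays, so these counts give no share of calls lost. With the number in the titles as a replicate block, 0 differed between tissues at 48 and 72 h. Arrays of both tissues share numbers in 27 pairs, but their deviations correlated by -0.0665 to 0.162 (7 of 27 over 0.1), and the labels do not say that a number is an animal. Few arrays and blanks limit the pituitary results.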
